A study of Arabidopsis thaliana with 10 samples.

Results

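The nuclear genes for the photosystems and their antennae were followed through all 10 libraries of a study of heat memory in Arabidopsis leaves. The set holds 38 of the 33602 genes in the deposited table, taken by gene identifier. There are 12 genes of the photosystem II antenna (LHCB), 4 genes of the photosystem I antenna (LHCA), 12 genes of photosystem I subunits (PSA) and 10 genes of photosystem II subunits (PSB). PolyA RNA was taken at 4 weeks of age from the fifth true leaf of plants kept under 16 h of light and 8 h of dark, with 2 libraries per group. The groups were Col-0 moved to 30 °C as seedlings (C30 plants, the stressed generation), their unstressed progeny (generation 2), the unstressed progeny of those (generation 3), the unstressed mutant sgs3-12, and wild-type Col-0 at 22 °C. SGS3 works with the polymerase RDR6 to make double-stranded RNA from which trans-acting small RNAs are cut. The lesion of the sgs3-12 allele and the hour of harvest were not stated. Whether a group's 2 libraries stem from separate plants is not said in the labels, so each p-value reflects how far these samples spread, and that spread may be technical.

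Photosystem II takes electrons from water and passes them, through the cytochrome complex and plastocyanin, to photosystem I, which reduces ferredoxin. Both reaction centres are built around proteins encoded in the chloroplast, and the nuclear genome supplies the antenna proteins, which carry chlorophyll and funnel excitation to the centres, and many of the smaller subunits. Antenna transcripts are among the most abundant mRNAs of a leaf, are induced by light through phytochrome and cycle over the day under the circadian clock.

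Total counts ranged from 17674090 to 23145159 per library, and all 38 genes were among the 19768 with enough counts to test. Leaf mesophyll markers (RBCS1A, RCA and CA1, for carbon fixation) summed to 23356 and 26614 CPM in C30 plants (counts scaled to library size with TMM factors), 28538 and 30553 in generation 2 plants, 24837 and 38611 in generation 3, 30759.9 and 28020.1 in sgs3-12, and 35089.6 and 10872 in wild type, whose library 2 was the lowest of all. The 5 root markers summed to at most 14.2 CPM and the 3 seed markers to at most 0.177 CPM. SGS3 itself (AT5G23570) was at 9.40 and 8.02 CPM in sgs3-12 and 24.0 and 35.1 CPM in wild type (log2 fold change −1.76 ± 0.34 SE, edgeR adjusted p = 0.280). It was at 9.48 and 7.87 CPM in generation 2 and 14.1 and 15.2 CPM in generation 3, both below both wild-type libraries as well (−1.77 ± 0.34 and −1.01 ± 0.33 as log2 fold changes, edgeR adjusted p = 0.357 and 0.548). The first libraries of generation 2 and of generation 3 differed from the others in how counts depended on gene length. The slope of log2 CPM on a 10-fold step in length was −2.43 and −1.33 in them and −0.49 to 1.31 in the other 8.

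The 38 genes together took a large and uneven share of each library. They took 16.9% and 16.2% of the counts in C30 plants, 29.7% and 13.4% in generation 2 plants, 28.2% and 16.1% in generation 3, 12.4% and 9.94% in sgs3-12, and 21.5% and 22.2% in wild type. The exact 95% binomial (Clopper-Pearson) interval of these shares is at most 0.021 percentage points to either side, which covers counting error only. Both sgs3-12 libraries had less than either library of any other group, while the 2 libraries of generation 2 and of generation 3 spanned the wild-type values. In bulk tissue, fewer mesophyll cells and less of these RNAs per cell cannot be told apart from these counts alone. The summed mesophyll markers of both sgs3-12 libraries lay between those of the wild-type libraries, and the 3 markers had a median log2 fold change of 0.61 there, with RCA above both wild-type libraries (background 27.0%) and 0 below (24.6%). RBCS1A and CA1 overlapped with wild type, whose library 2 had the lowest marker sum of all (10872 CPM, against 35089.6 CPM in library 1).

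Levels could be ranked between genes only per length, as TPM (a level scaled to transcript length and library), on the gene lengths described with the methods. In wild type the highest was LHCB1.3 at 46954 ± 9884 TPM (mean ± SD, n = 2 here and for the next values). It was followed by LHCB1.5 at 26586 ± 8647 TPM and by PSBR, a lumenal protein of photosystem II, at 14065 ± 1383 TPM. The lowest were PSAE2 at 1945 ± 540.2 TPM and PSBS at 995 ± 661 TPM. Of the 37 pairs of neighbours in this order, 5 had wild-type values that did not overlap, so most of the order between neighbours was not resolved by 2 libraries.

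LHCB1 and LHCB2 encode the major trimeric antenna, LHCII, which binds to photosystem II and, in its phosphorylated form, moves to photosystem I in state transitions. The 5 LHCB1 copies lie in a pair of clusters, given here in TAIR10 coordinates. LHCB1.2 (AT1G29910, chromosome 1, 10472280 to 10473299), LHCB1.1 (AT1G29920, chromosome 1, 10474784 to 10475959) and LHCB1.3 (AT1G29930, chromosome 1, 10478005 to 10479048) form one cluster. LHCB1.5 (AT2G34420, chromosome 2, 14522524 to 14523568) and LHCB1.4 (AT2G34430, chromosome 2, 14524756 to 14525763) form the other. Their coding sequences were 87.4% to 96.4% identical in pairs, and LHCB2.1 (AT2G05100, chromosome 2, 1823240 to 1824425) and LHCB2.2 (AT2G05070, chromosome 2, 1799234 to 1800392) were 96.6% identical. The start of the 5 LHCB1 coding sequences shows how far reads can tell the copies apart. Shown 5′ to 3′ are the first 120 coding bases of LHCB1.3 and the bases aligned to them, from RefSeq (TAIR10.1), with capitals for bases that differ from LHCB1.3.
LHCB1.1: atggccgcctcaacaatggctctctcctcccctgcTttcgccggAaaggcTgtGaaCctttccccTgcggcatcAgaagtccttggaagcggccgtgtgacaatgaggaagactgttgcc
LHCB1.2: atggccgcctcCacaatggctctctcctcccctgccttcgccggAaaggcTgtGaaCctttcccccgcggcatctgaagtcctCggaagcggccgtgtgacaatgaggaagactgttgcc
LHCB1.3: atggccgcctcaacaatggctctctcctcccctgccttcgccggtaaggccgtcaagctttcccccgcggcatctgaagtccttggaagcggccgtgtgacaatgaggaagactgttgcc
LHCB1.4: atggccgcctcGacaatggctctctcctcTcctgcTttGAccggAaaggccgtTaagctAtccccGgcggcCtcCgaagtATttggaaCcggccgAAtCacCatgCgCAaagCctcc
LHCB1.5: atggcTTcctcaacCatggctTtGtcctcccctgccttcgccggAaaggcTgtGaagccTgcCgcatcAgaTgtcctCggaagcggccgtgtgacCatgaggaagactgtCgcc
In this stretch LHCB1.1 and LHCB1.2 differed from LHCB1.3 at 7 and 6 bases, LHCB1.4 at 22 of its 117 and LHCB1.5 at 15 of its 114. The alignments of LHCB1.4 and LHCB1.5 hold gaps. Bases missing from a copy are neither printed nor counted, so these lines shift against LHCB1.3 after a gap. Over whole transcripts, 1.85% to 5.01% of 100-base windows of an LHCB1 copy, and 12.9% and 13.4% of those of LHCB2.1 and LHCB2.2, also occur in another of the 38 genes, against 0 for the other 31. Windows were not searched for in genes outside the 38, such as a further LHCB2 gene, LHCB2.3. How reads from shared windows were placed in the authors' counting was not stated. The split between LHCB1 or LHCB2 copies is therefore uncertain.

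The 38 genes varied together from library to library, as the plot of all genes by library shows. Library 1 of generation 2 had the highest value for 30 genes and library 2 of sgs3-12 the lowest for 33. In generation 2, library 1 was higher than library 2 for 38 of 38 genes, by 2.62-fold in the median (range 1.11 to 11.1). In generation 3 it was higher for 37 of 38, by 1.78-fold in the median. Of all tested genes 50.1% and 50.2% were higher in library 1 of these groups. PSBS was the exception in generation 3. The libraries of C30 plants differed least, with a median of 1.03-fold and 20 of 38 genes higher in library 1. Across all 10 libraries the ratio of the highest to the lowest CPM was widest for LHCB1.4 (61.8-fold), followed by LHCB1.2 (9.74-fold), LHCB1.3 (6.55-fold) and PSAE2 (6.35-fold), and narrowest for PSBY (2.13-fold).

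**Figure D1:**
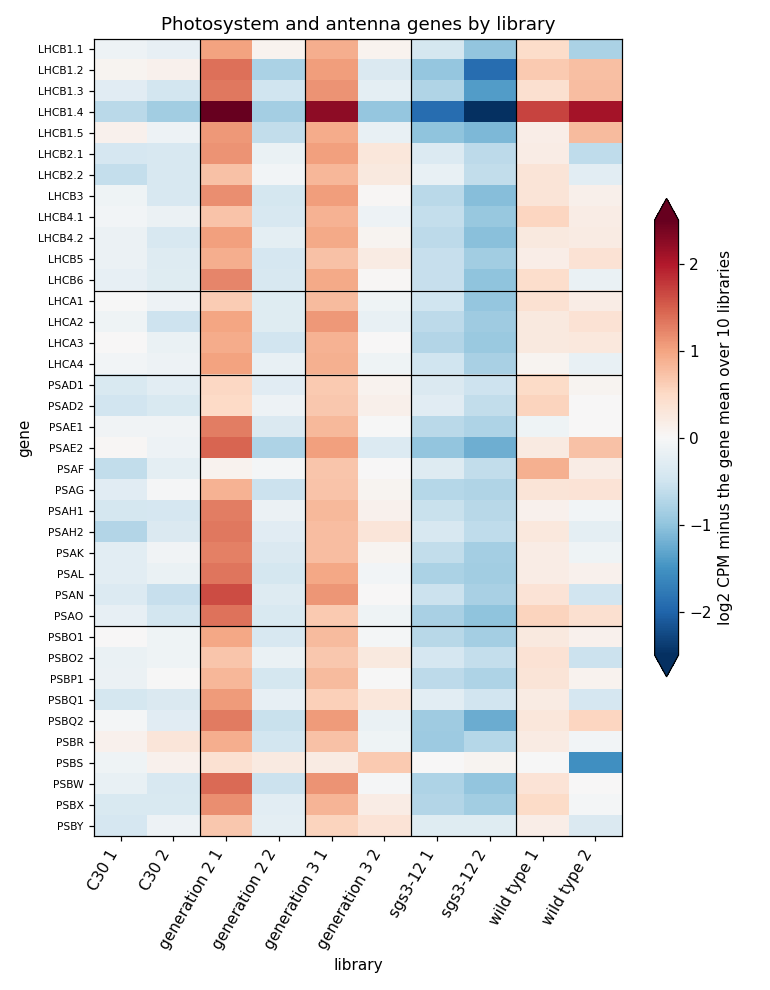
Colours give log2 CPM (TMM-scaled) minus the gene's mean over the 10 libraries, with genes in rows (grouped as photosystem II antenna, photosystem I antenna, photosystem I subunits and photosystem II subunits) and libraries in columns, 2 per group. Library 1 of generation 2 is highest for 30 of the 38 genes, library 2 of sgs3-12 is lowest for 33, and the row of LHCB1.4 has the widest range (61.8-fold).

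The C30 plants, the stressed generation itself, were compared with wild type at 22 °C. Nearly all of the set stood below wild type: 36 of 38 log2 fold changes were negative, with a median of −0.47 where the median of all tested genes was −0.02. For 27 genes both C30 libraries were below both wild-type libraries, against a background of 25.2% of tested genes, and for 0 genes above, against 26.3%. No gene of the set passed an adjusted p under 0.05 in edgeR's quasi-likelihood test, which called 0 (0%) of all 19768 genes. Of the 38, 0 had an unadjusted p under 0.05, where 1564 of all genes (7.91%) did. DESeq2 called 297 genes and limma-trend 0, none of them in the set. The median was −0.50 in the photosystem II antenna (10 of 12 genes below both wild-type libraries), −0.34 in the photosystem I antenna (3 of 4), −0.51 in photosystem I subunits (9 of 12) and −0.26 in photosystem II subunits (5 of 10).

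The gene with the lowest p was PSAF (AT1G31330, chromosome 1, 11214824 to 11216037), the subunit on which plastocyanin docks. It was at 1748 and 2283 CPM in C30 plants and 4951 and 3044 CPM in wild type (log2 fold change −0.99 ± 0.44 SE, edgeR adjusted p = 0.630, n = 2 per group here and below). LHCB1.4 was at 1665 and 1470.1 CPM, against 8627 and 11275 CPM in wild type (log2 fold change −2.67 ± 1.24 SE, edgeR adjusted p = 0.655). Its C30 libraries agreed closely and lay far below both wild-type libraries, and no other gene of the set had a fold change of that size here. PSAD1 (AT4G02770, chromosome 4, 1229111 to 1229945) and PSAD2 (AT1G03130, chromosome 1, 753307 to 754198) form the stromal docking site for ferredoxin. PSAD1 was at 1944 and 2137 CPM, against 3561 and 2686 CPM in wild type (log2 fold change −0.61 ± 0.43 SE, edgeR adjusted p = 0.796). PSAD2 was at 937 and 1005 CPM, against 1929.7 and 1309 CPM (log2 fold change −0.74 ± 0.42 SE, edgeR adjusted p = 0.733). All 3 of these subunit genes had both C30 libraries below both wild-type libraries, and none passed the test. The 2 genes with positive values were PSBS (0.58 ± 0.51, edgeR adjusted p = 0.849) and PSBR (0.14 ± 0.54, adjusted p = 0.970), and their groups overlapped.

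**Figure D2:**
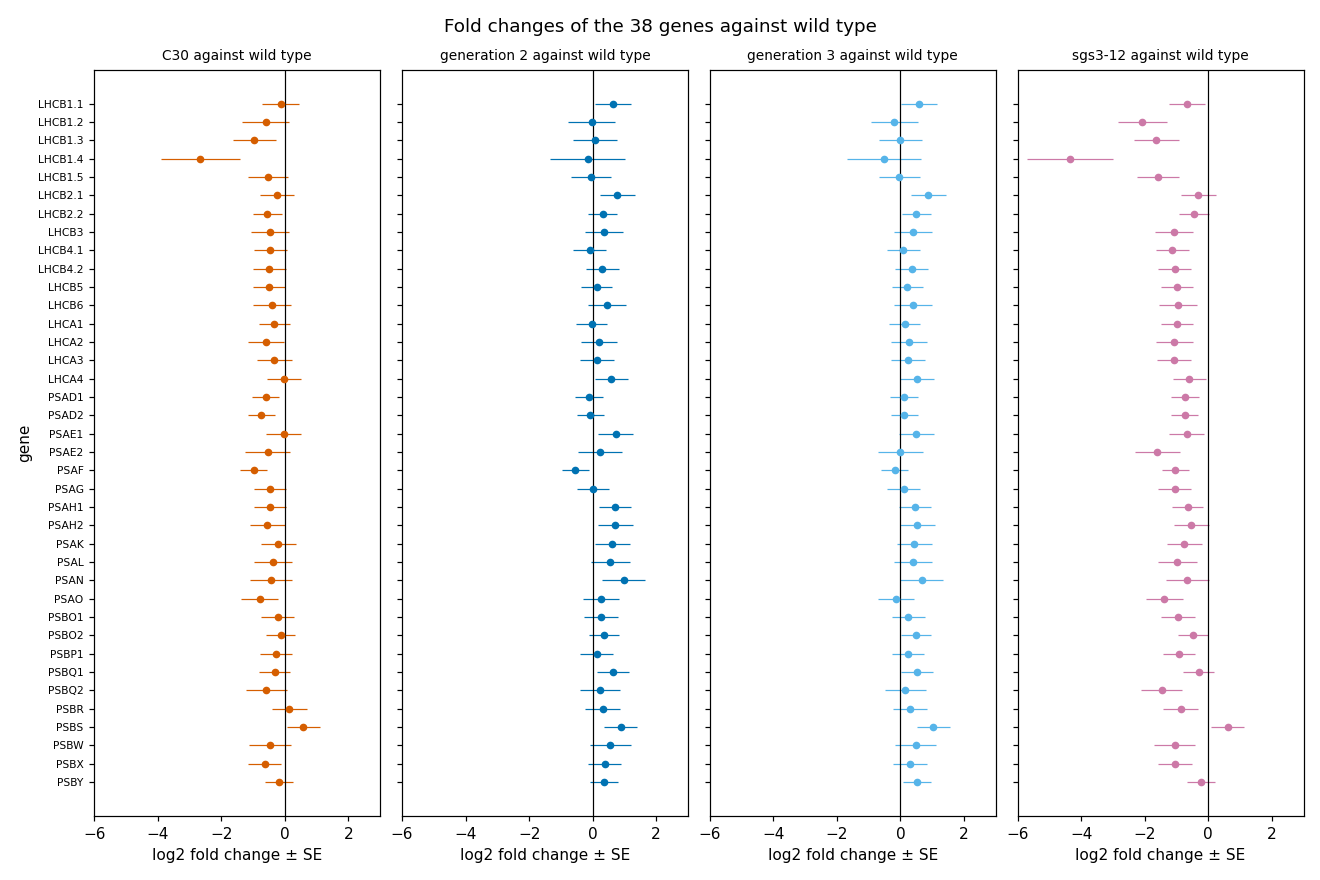
Points are log2 fold changes against wild type with their standard errors (edgeR, n = 2 libraries per group) for each of the 38 genes, in panels for C30 plants, generation 2, generation 3 and sgs3-12. Points lie left of 0 for 36 genes in C30 plants and 37 in sgs3-12, and right of 0 for 30 genes in generation 2 and 32 in generation 3, and LHCB1.4 in sgs3-12 lies farthest from 0 at −4.35.

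The unstressed descendants were compared with wild type to ask what remains after the heat. In generation 2, 30 of 38 log2 fold changes were positive, with a median of 0.31 beside 0.11 for all genes, but the 2 libraries disagreed. For 36 genes the groups overlapped, for 1 gene both libraries were above both of wild type (background 16.8%) and for 1 below (17.2%). EdgeR called 0 (0%) of all genes at an adjusted p under 0.05 and none of the set, with 2302 genes (11.6%) and 0 of the 38 at an unadjusted p under 0.05. DESeq2 called 666 genes and limma-trend 0, none in the set. Without library 1 of generation 2 the median was −0.58, and with gene length as an offset −0.12, so the sign of the set in generation 2 depends on that library and on the length correction.

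The gene above wild type in generation 2 was PSBS (AT1G44575, chromosome 1, 16871696 to 16873383), the sensor of low lumen pH that switches on thermal dissipation of excess light. It was at 2570.0 and 2312 CPM, against 1957 and 675 CPM in wild type (log2 fold change 0.89 ± 0.52 SE, edgeR adjusted p = 0.524). The low wild-type value was that of library 2, in which PSBS was 2.90-fold lower than in library 1 and lower than in any other library. PSAN (AT5G64040, chromosome 5, 25628588 to 25629615), a lumenal subunit beside the plastocyanin site, was at 5767 and 1483 CPM, against 2366 and 1333 CPM in wild type (log2 fold change 0.97 ± 0.67 SE, edgeR adjusted p = 0.580). LHCB2.1 was at 11763 and 4815 CPM, against 6124 and 3515 CPM (log2 fold change 0.78 ± 0.55 SE, edgeR adjusted p = 0.583). PSAH1 (AT3G16140, chromosome 3, 5468509 to 5469481), part of the face of photosystem I on which LHCII docks, was at 3081 and 1160.5 CPM, against 1383 and 1223 CPM (log2 fold change 0.70 ± 0.50 SE, edgeR adjusted p = 0.590). In PSAN, LHCB2.1 and PSAH1 library 1 of generation 2 was above both wild-type libraries and library 2 lay between them for PSAN and LHCB2.1 and below them for PSAH1. The gene below wild type was PSAF, at 2866 and 2589 CPM, against 4951 and 3044 CPM (log2 fold change −0.55 ± 0.43 SE, edgeR adjusted p = 0.619).

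In generation 3, 32 of 38 log2 fold changes were positive, with a median of 0.30 beside 0.04 for all genes. Both libraries were above both of wild type for 5 genes, PSBS, LHCB2.1, PSAH2, PSBQ1 and PSBY (background 21.1%), and below for 0 (background 22.2%). EdgeR called 0 (0%) of all genes and none of the set, with 1696 genes (8.58%) and 0 of the 38 at an unadjusted p under 0.05. DESeq2 called 205 genes and limma-trend 0, none in the set. PSBS was at 2277 and 3109 CPM in generation 3 and 1957 and 675 CPM in wild type (log2 fold change 1.03 ± 0.52 SE, edgeR adjusted p = 0.607). LHCB2.1 was at 11089.9 and 6614 CPM, against 6124 and 3515 CPM (log2 fold change 0.88 ± 0.55 SE, edgeR adjusted p = 0.648). LHCB2.2 was at 6835 and 4602 CPM, against 4852 and 3209 CPM (log2 fold change 0.50 ± 0.46 SE, edgeR adjusted p = 0.737). LHCB2.2 overlapped with wild type and LHCB2.1 did not. PSBY (AT1G67740, chromosome 1, 25394068 to 25395154), a small membrane subunit of photosystem II, was at 3044 and 2627 CPM, against 2331 and 1613 CPM (log2 fold change 0.52 ± 0.43 SE, edgeR adjusted p = 0.714). Without library 1 of generation 3 the median of the 38 genes was −0.19, and with the length offset −0.03.

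Set against their stressed ancestors, both later generations stood higher on the whole set, and these comparisons share the C30 libraries. All 38 log2 fold changes were positive for generation 2 against C30 plants (median 0.78, all genes 0.07) and for generation 3 against C30 plants (median 0.72, all genes −0.01). Both libraries of generation 3 were above both C30 libraries for 27 genes (background 22.5%) and below for 0 (23.5%), and those of generation 2 for 11 genes (16.7%) and 0 (18.7%). PSAH2 (AT1G52230, chromosome 1, 19454836 to 19455668), the partner copy of PSAH1, was at 3029 and 2179.9 CPM in generation 3 and 1065 and 1379 CPM in C30 plants (log2 fold change 1.09 ± 0.55 SE, edgeR adjusted p = 0.763). Generation 3 against generation 2 had a median of −0.01 and overlapping libraries for all 38 genes, with 0 above and 0 below where the background was 5.78% and 6.27%. In these 3 comparisons edgeR called 0 (0%) of all genes, with 1849, 1360 and 328 genes at an unadjusted p under 0.05, of which 1, 0 and 0 in the set. DESeq2 called 345, 225 and 2 genes, none in the set, and limma-trend 0. Without library 1 of generation 2 the first median was −0.12, and without library 1 of generation 3 the second was 0.25.

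The mutant sgs3-12, unstressed as well, was compared with wild type, and here the set stood lowest. A negative log2 fold change was found for 37 of 38 genes, with a median of −0.96 (0.514-fold) where all genes had 0.01. Both sgs3-12 libraries were below both of wild type for 31 genes (background 24.6%) and above for 1 (background 27.0%). EdgeR called 0 (0%) of all genes and none of the set. At an unadjusted p under 0.05 it had 1959 genes (9.91%), among them 6 of the 38: LHCB1.4, LHCB1.2, LHCB1.5, PSAO, PSAF and LHCB1.3. DESeq2 called 602 genes and 1 of the set, LHCB1.4, and limma-trend called 0. The median was −1.07 in the photosystem II antenna (9 of 12 genes below), −1.03 in the photosystem I antenna (4 of 4), −0.75 in photosystem I subunits (12 of 12) and −0.90 in photosystem II subunits (6 of 10).

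LHCB1.4 had the lowest log2 fold change of the set, at 715 and 264 CPM in sgs3-12 and 8627 and 11275 CPM in wild type (log2 fold change −4.35 ± 1.34 SE, edgeR adjusted p = 0.381). DESeq2 gave it an adjusted p of 0.00427. EdgeR without library 1 of generation 2 and of generation 3 gave it an adjusted p of 0.0223, in a fit that also called PSAE2 (0.0462). Over all alternatives its adjusted p ranged from 0.00427 to 1. LHCB1.2 was at 3025 and 1596 CPM, against 9392 and 9978 CPM in wild type (log2 fold change −2.07 ± 0.77 SE, edgeR adjusted p = 0.452). Both copies had sgs3-12 values well apart from wild type, and the 2 sgs3-12 libraries of LHCB1.4 differed by 2.71-fold from each other. LHCB1.5 was at 6987 and 6427 CPM, against 15831 and 24187 CPM (log2 fold change −1.58 ± 0.65 SE, edgeR adjusted p = 0.478). LHCB1.3, the most abundant copy, was at 13899 and 8853 CPM, against 30875 and 39862 CPM (log2 fold change −1.64 ± 0.71 SE, edgeR adjusted p = 0.496). LHCB1.1 was at 5016 and 3446 CPM, against 9386 and 3954 CPM (log2 fold change −0.66 ± 0.57 SE, edgeR adjusted p = 0.790), and was the only LHCB1 copy that overlapped with wild type. PSAO (AT1G08380, chromosome 1, 2640813 to 2641828), on the LHCII side of photosystem I, was at 995 and 869 CPM, against 2553 and 2286 CPM (log2 fold change −1.38 ± 0.58 SE, edgeR adjusted p = 0.487). PSAF was at 2144 and 1766 CPM, against 4951 and 3044 CPM (log2 fold change −1.03 ± 0.44 SE, edgeR adjusted p = 0.490). PSBS had a positive value, at 1968 and 2056 CPM, against 1957 and 675 CPM (log2 fold change 0.61 ± 0.51 SE, edgeR adjusted p = 0.778), with both sgs3-12 libraries just above both of wild type.

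The other antenna genes had log2 fold changes from −1.13 to −0.32 in sgs3-12. The minor antenna proteins, which sit singly between LHCII trimers and the core, are encoded by LHCB4.1, LHCB4.2, LHCB5 and LHCB6. Their log2 fold changes were −1.13 ± 0.52, −1.06 ± 0.53, −0.98 ± 0.50 and −0.95 ± 0.60. LHCB3, a minor member of the trimers, was at −1.08 ± 0.60. The photosystem I belt genes LHCA1, LHCA2 and LHCA3 were at −0.99 ± 0.50, −1.07 ± 0.58 and −1.08 ± 0.54, and LHCA4 at −0.59 ± 0.53. All of these 9 genes had both sgs3-12 libraries below both wild-type libraries and none passed the test. LHCB2.1 was at 4266 and 3455 CPM in sgs3-12 and 6124 and 3515 CPM in wild type (log2 fold change −0.32 ± 0.55 SE, edgeR adjusted p = 0.917). LHCB2.2 was at 3376 and 2534 CPM, against 4852 and 3209 CPM (log2 fold change −0.45 ± 0.46 SE, edgeR adjusted p = 0.833). Both overlapped with wild type.

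Within the LHCB1 family the copies did not hold constant proportions, which the counts give without any scaling between libraries. The share of LHCB1.4 in the LHCB1 counts was 3.43% and 3.37% in C30 plants, 12.2% and 3.90% in generation 2 plants, 10.9% and 2.99% in generation 3, 2.41% and 1.28% in sgs3-12, and 11.6% and 12.6% in wild type. Both libraries of C30 plants, of generation 3 and of sgs3-12 were below both of wild type, and generation 2 overlapped with it. In generation 2 and generation 3 library 1 was near wild type and library 2 near the C30 plants. The difference from wild type was −8.74 percentage points in C30 plants, −5.21 in generation 3 and −10.3 in sgs3-12, each with a two-sided exact permutation p of 0.333, which is the smallest that 2 libraries against 2 can give. The share of LHCB1.3 ranged from 39.0% to 46.9% over the 10 libraries. LHCB1.5 supplied 31.2% and 29.4% in C30 plants, 22.3% and 24.4% in generation 2 plants, 23.3% and 27.3% in generation 3, 23.6% and 31.2% in sgs3-12, and 21.4% and 27.1% in wild type. LHCB1.1 supplied 12.8% and 13.5% in C30 plants, 10.2% and 19.1% in generation 2 plants, 11.0% and 15.9% in generation 3, 16.9% and 16.7% in sgs3-12, and 12.7% and 4.43% in wild type. Wild-type library 2 was lowest of all for this copy. LHCB1.2 supplied 7.75% to 14.7%, lowest in library 2 of sgs3-12 and highest in library 2 of C30 plants.

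In CPM the first LHCB1 copy, LHCB1.1, was at 6197 and 5889 CPM in C30 plants, 13615 and 7198 in generation 2 plants, 12722 and 7219.9 in generation 3, 5016 and 3446 in sgs3-12, and 9386 and 3954 in wild type. LHCB1.2 was at 6222 and 6432 CPM in C30 plants, 15538 and 3435 in generation 2 plants, 12295 and 4642 in generation 3, 3025 and 1596 in sgs3-12, and 9392 and 9978 in wild type. LHCB1.3 was at 19291 and 17006 CPM in C30 plants, 58025 and 16468 in generation 2 plants, 50821 and 19807 in generation 3, 13899 and 8853 in sgs3-12, and 30875 and 39862 in wild type. For each of these copies library 1 of generation 2 was highest and library 2 of sgs3-12 lowest. LHCB1.4 was at 1665 and 1470.1 CPM in C30 plants, 16299 and 1473 in generation 2 plants, 12514 and 1359 in generation 3, 715 and 264 in sgs3-12, and 8627 and 11275 in wild type. LHCB1.5 was at 15143 and 12837 CPM in C30 plants, 29718 and 9206 in generation 2 plants, 26907 and 12387 in generation 3, 6987 and 6427 in sgs3-12, and 15831 and 24187 in wild type. Library 1 exceeded library 2 by 11.1-fold for LHCB1.4 in generation 2 and by 9.21-fold in generation 3, against 1.89-fold and 1.76-fold for LHCB1.1.

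**Figure D3:**
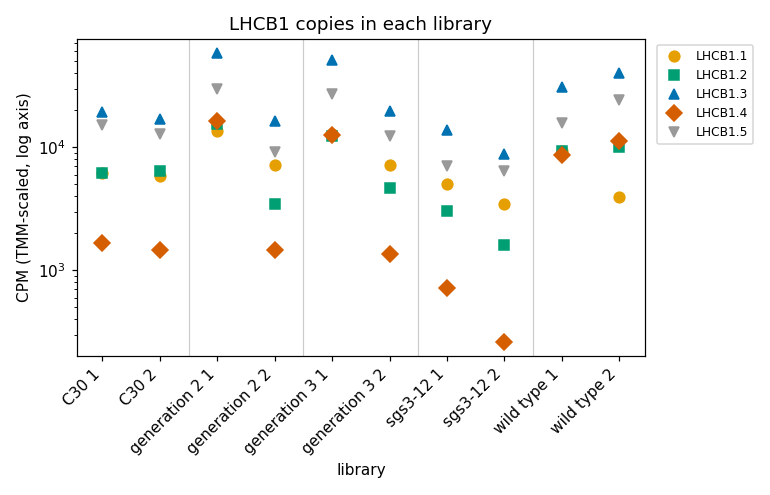
Each point is the TMM-scaled CPM (log axis) of 1 LHCB1 copy in 1 library, with the libraries of C30 plants, generation 2, generation 3, sgs3-12 and wild type from left to right. LHCB1.3 is the highest copy in every library and LHCB1.4 ranges from 264 CPM in library 2 of sgs3-12 to 16299 CPM in library 1 of generation 2.

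The families with a pair of copies in the set differed in how steady their proportions were, from PSAD1 at 63.5% to 68.0% of its family to PSBQ2 at 46.9% to 74.4%. Shares were taken over the copies in the set, which leaves out LHCB2.3 and LHCB4.3. The share of LHCB2.1 in the LHCB2 counts was 61.3% and 58.3% in C30 plants, 64.7% and 56.8% in generation 2 plants, 61.9% and 59.0% in generation 3, 55.8% and 57.7% in sgs3-12, and 55.8% and 52.3% in wild type. This share of the pair was above both wild-type libraries in each of the other groups, in library 1 of sgs3-12 by less than the counting interval. LHCB2.3 was at 998 and 1339 CPM in C30 plants, 4869 and 1960 in generation 2 and 4357 and 2200 in generation 3. It was at 1402 and 771 CPM in sgs3-12 and 3553 and 864 CPM in wild type. Shares with LHCB2.3 included were not computed, so the order of the groups holds for the pair only. LHCB2.1 was at 4052 and 4099 CPM in C30 plants, 11763 and 4815 in generation 2 plants, 11089.9 and 6614 in generation 3, 4266 and 3455 in sgs3-12, and 6124 and 3515 in wild type. LHCB2.2 was at 2555 and 2926 CPM in C30 plants, 6420.1 and 3661 in generation 2 plants, 6835 and 4602 in generation 3, 3376 and 2534 in sgs3-12, and 4852 and 3209 in wild type. In the LHCB4 pair, LHCB4.1 (AT5G01530, chromosome 5, 208937 to 210445) was at 4507 and 4278 CPM in C30 plants, 7799.9 and 3605 in generation 2 plants, 8614 and 4342 in generation 3, 3117 and 2439 in sgs3-12, and 6846 and 5349 in wild type. LHCB4.2 (AT3G08940, chromosome 3, 2717675 to 2718883) was at 3187 and 2647 CPM in C30 plants, 7123 and 2955 in generation 2 plants, 6770.4 and 3654 in generation 3, 2241 and 1699.8 in sgs3-12, and 4155 and 4039 in wild type. The share of LHCB4.1 ranged from 52.3% to 62.2% and was below both wild-type libraries in generation 2 and in generation 3.

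Among photosystem I subunits, PSAD1 was at 1944 and 2137 CPM in C30 plants, 3638 and 2092 in generation 2 plants, 4030.3 and 2697 in generation 3, 1991 and 1769 in sgs3-12, and 3561 and 2686 in wild type. PSAD2 was at 937 and 1005 CPM in C30 plants, 1855 and 1199.8 in generation 2 plants, 2088 and 1434 in generation 3, 1080.2 and 859 in sgs3-12, and 1929.7 and 1309 in wild type. PSAD1 held 63.5% to 68.0% of the PSAD counts in every library, the narrowest range among the paired families. PSAE is the other stromal subunit at the ferredoxin site. PSAE1 (AT4G28750, chromosome 4, 14202758 to 14203961) was at 3659 and 3682 CPM in C30 plants, 9427 and 3007 in generation 2 plants, 6823 and 3854 in generation 3, 2432 and 2285 in sgs3-12, and 3599.9 and 3932 in wild type. PSAE2 (AT2G20260, chromosome 2, 8736734 to 8737767) was at 614 and 555 CPM in C30 plants, 1646 and 355 in generation 2 plants, 1233 and 475 in generation 3, 303 and 259 in sgs3-12, and 702 and 999.9 in wild type. The share of PSAE2 was 14.4% and 13.1% in C30 plants, 14.9% and 10.6% in generation 2 plants, 15.3% and 11.0% in generation 3, 11.1% and 10.2% in sgs3-12, and 16.3% and 20.3% in wild type. Every library outside wild type was below both wild-type libraries. PSAH1 was at 937 and 954 CPM in C30 plants, 3081 and 1160.5 in generation 2 plants, 2233 and 1383 in generation 3, 870.2 and 790.3 in sgs3-12, and 1383 and 1223 in wild type. PSAH2 was at 1065 and 1379 CPM in C30 plants, 4434 and 1451 in generation 2 plants, 3029 and 2179.9 in generation 3, 1348 and 1142 in sgs3-12, and 2122 and 1486 in wild type. PSAH1 held 38.8% to 46.8% of the PSAH counts, with no group apart from wild type in both libraries. PSAF, of which there is a single gene, was at 1748 and 2283 CPM in C30 plants, 2866 and 2589 in generation 2 plants, 4326 and 2707 in generation 3, 2144 and 1766 in sgs3-12, and 4951 and 3044 in wild type, and was the only gene of the 38 whose highest value lay in wild type. PSAN was at 1469.5 and 1258 CPM in C30 plants, 5767 and 1483 in generation 2 plants, 4008 and 1880.4 in generation 3, 1288 and 1058 in sgs3-12, and 2366 and 1333 in wild type. PSAO was at 1517 and 1257 CPM in C30 plants, 4437 and 1343 in generation 2 plants, 2744 and 1610.3 in generation 3, 995 and 869 in sgs3-12, and 2553 and 2286 in wild type. Both were highest in library 1 of generation 2 and lowest in library 2 of sgs3-12.

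Among photosystem II subunits, PSBO shields the manganese cluster that splits water and PSBP and PSBQ sit beside it on the lumenal side. PSBO1 (AT5G66570, chromosome 5, 26568653 to 26570278) was at 7383 and 6822 CPM in C30 plants, 14336 and 5618 in generation 2 plants, 12774 and 7101 in generation 3, 4575 and 4077 in sgs3-12, and 8747 and 7917 in wild type. PSBO2 (AT3G50820, chromosome 3, 18890876 to 18892426) was at 1903 and 1979 CPM in C30 plants, 3473 and 1915 in generation 2 plants, 3429 and 2519 in generation 3, 1600.4 and 1422 in sgs3-12, and 2753 and 1484 in wild type. PSBO2 held 15.8% to 26.2% of the PSBO counts, lowest in library 2 of wild type and at 25.9% in both sgs3-12 libraries. PSBQ1 (AT4G21280, chromosome 4, 11334402 to 11335773) was at 1304 and 1386 CPM in C30 plants, 3711 and 1545 in generation 2 plants, 2679.6 and 2153 in generation 3, 1467 and 1269 in sgs3-12, and 2043 and 1323 in wild type. PSBQ2 (AT4G05180, chromosome 4, 2671822 to 2673243) was at 2540.2 and 2176 CPM in C30 plants, 6519.5 and 1786 in generation 2 plants, 5500.3 and 2364 in generation 3, 1430.2 and 1120.4 in sgs3-12, and 3226 and 3851 in wild type. The share of PSBQ2 was 66.1% and 61.1% in C30 plants, 63.7% and 53.6% in generation 2 plants, 67.2% and 52.3% in generation 3, 49.4% and 46.9% in sgs3-12, and 61.2% and 74.4% in wild type. In sgs3-12 both libraries were below both of wild type, with a difference of −19.7 percentage points between the means, and the copies were close to equal in counts. PSBS was at 1826 and 2109.8 CPM in C30 plants, 2570.0 and 2312 in generation 2 plants, 2277 and 3109 in generation 3, 1968 and 2056 in sgs3-12, and 1957 and 675 in wild type. PSBY was at 1548 and 1899 CPM in C30 plants, 3303 and 1762 in generation 2 plants, 3044 and 2627 in generation 3, 1682 and 1691 in sgs3-12, and 2331 and 1613 in wild type. PSBS was the only gene of the set with a log2 fold change against wild type above 0.5 in all 4 comparisons, which share the low value of wild-type library 2.

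The other genes of the set, each without a second copy here, all had their highest value in library 1 of generation 2 or of generation 3 and their lowest in a library of sgs3-12. LHCB3 (AT5G54270, chromosome 5, 22038273 to 22039568) ran from 14621 CPM in library 1 of generation 2 down to 3095 in library 2 of sgs3-12. The minor antenna genes LHCB5 (AT4G10340, chromosome 4, 6408016 to 6409677) and LHCB6 (AT1G15820, chromosome 1, 5446462 to 5447859) spanned 3.43-fold and 4.73-fold from the highest library to the lowest. LHCA1 to LHCA4, whose proteins form the crescent of antenna along one side of photosystem I, spanned 3.40-fold, 3.92-fold, 3.62-fold and 3.55-fold. LHCA4 (AT3G47470, chromosome 3, 17493372 to 17495033) ran from 16031 CPM in library 1 of generation 2 down to 4517 in library 2 of sgs3-12, and of these 4 had the log2 fold change nearest to 0 in C30 plants (−0.04 ± 0.53) and in sgs3-12. PSAG (AT1G55670, chromosome 1, 20802670 to 20803449) and PSAK (AT1G30380, chromosome 1, 10722197 to 10723247), related membrane subunits at the edges of photosystem I, ran from 4814 CPM in library 1 of generation 2 down to 1562 in library 2 of sgs3-12 and from 3623 CPM in library 1 of generation 2 down to 846 in library 2 of sgs3-12. PSAL (AT4G12800, chromosome 4, 7521322 to 7522670), the membrane subunit beside PSAH, ran from 10642 CPM in library 1 of generation 2 down to 2318 in library 2 of sgs3-12. In sgs3-12 the log2 fold changes of PSAG, PSAK and PSAL were −1.06 ± 0.51, −0.76 ± 0.55 and −0.97 ± 0.61, all with both libraries below wild type and none past the test. PSBP1 (AT1G06680, chromosome 1, 2047825 to 2049418) ran from 9786 CPM in library 1 of generation 2 down to 3244 in library 2 of sgs3-12. PSBR (AT1G79040, chromosome 1, 29736016 to 29737009) ran from 13163 CPM in library 1 of generation 2 down to 3735 in library 1 of sgs3-12, and was the only member of the set lowest in that library. PSBW (AT2G30570, chromosome 2, 13019028 to 13020194) and PSBX (AT2G06520, chromosome 2, 2587729 to 2588358), small membrane subunits of photosystem II, spanned 5.30-fold and 4.11-fold.

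**Figure D4:**
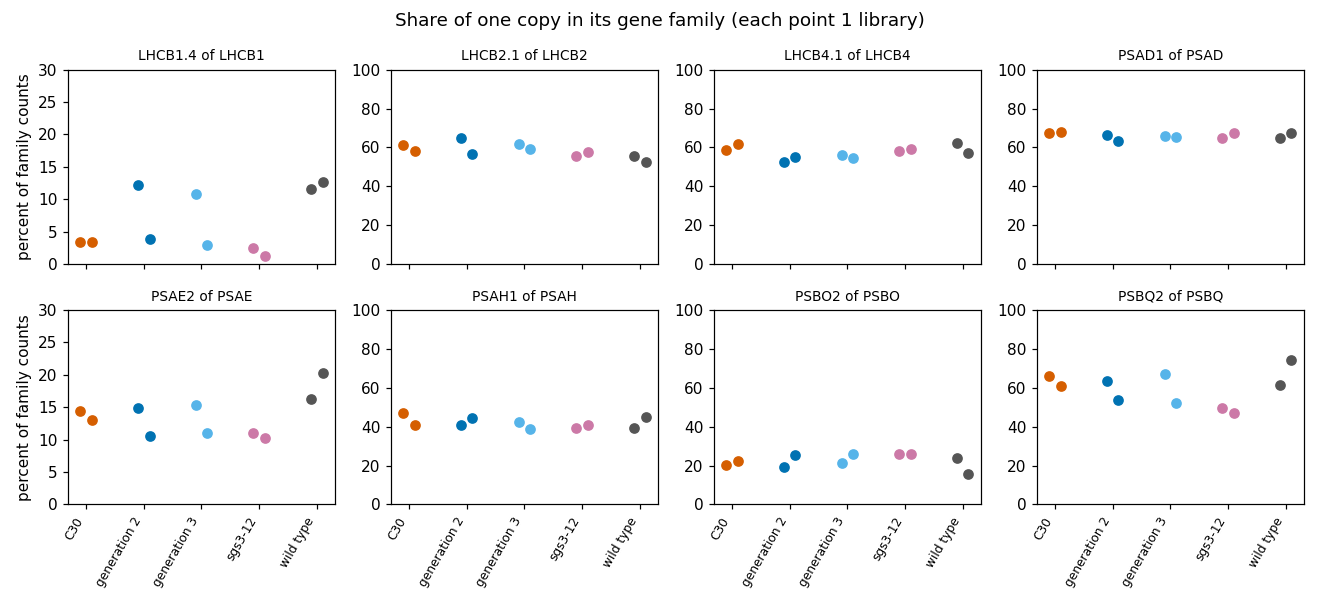
Each point is the percentage of the counts of a gene family's copies in the set that fell on the named copy in 1 library, with C30 plants, generation 2, generation 3, sgs3-12 and wild type from left to right (axes to 30% for LHCB1.4 and PSAE2 and to 100% for the others). LHCB1.4 ranges from 1.28% in library 2 of sgs3-12 to 12.6% in library 2 of wild type, while PSAD1 stays between 63.5% and 68.0%.

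Because antenna genes follow the clock, clock genes were set beside them. CCA1 and LHY, morning-phased repressors of the clock of which CCA1 was first known as a protein that binds a light-harvesting gene promoter, were picked for display after their values had been seen, as was PRR5. LHY was at 40.6 and 37.5 CPM in C30 plants, 20.8 and 292 in generation 2 plants, 31.4 and 304 in generation 3, 489 and 407 in sgs3-12, and 21.6 and 4.08 in wild type. CCA1 was at 76.6 and 91.4 CPM in C30 plants, 34.5 and 344 in generation 2 plants, 52.4 and 270.0 in generation 3, 372 and 302 in sgs3-12, and 110.3 and 13.8 in wild type. In generation 2 and in generation 3, library 2 had more LHY and CCA1 and less LHCB1.4 than library 1. Both sgs3-12 libraries had more LHY and CCA1 and less LHCB1.4 than both of wild type (LHY log2 fold change 5.12 ± 1.52 SE, edgeR adjusted p = 0.374). In wild type, library 2 had less LHY and CCA1 and more LHCB1.4 (11275 CPM) than library 1 (8627 CPM). In C30 plants LHCB1.4 was as low as in library 2 of generation 2, and CCA1 overlapped with wild type. LHY in C30 plants was above both wild-type libraries but far below library 2 of generation 2. PRR5, an afternoon-phased repressor, was at 9.28 and 11.3 CPM in C30 plants, at most 3.98 CPM in generation 2, generation 3 and sgs3-12, and 4.07 and 127 CPM in wild type. PRR7, the clock gene with the lowest p, was at 63.9 and 51.3 CPM in sgs3-12 and 299.9 and 361 CPM in wild type (log2 fold change −2.52 ± 0.49 SE, edgeR adjusted p = 0.289). The wild-type libraries differed from each other in clock genes. Library 2 had more PRR5, PRR7, TOC1, GI, ELF4 and LUX and less PRR9, CCA1 and LHY than library 1. TOC1 was at 14.3 and 163 CPM in wild-type libraries 1 and 2, and GI at 42.9 and 146 CPM. All comparisons with wild type share this pair. Of the 9 clock genes, none passed the test in any comparison with wild type. The number with an unadjusted p under 0.05 was 3 in C30 plants, 6 and 7 in the later generations, and 7 in sgs3-12. Of all tested genes 7.91%, 11.6%, 8.58% and 9.91% had such a p in these comparisons. In sgs3-12, 2 clock genes were above both wild-type libraries (background 27.0%) and 6 below (24.6%), with a median log2 fold change of −2.73. In C30 plants 1 was above (26.3%) and 3 below (25.2%). In generation 2, 0 were above (16.8%) and 3 below (17.2%). In generation 3, 1 was above (21.1%) and 4 below (22.2%). The part of the clock genes' levels in the differences between libraries of the antenna genes was not tested.

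**Figure D5:**
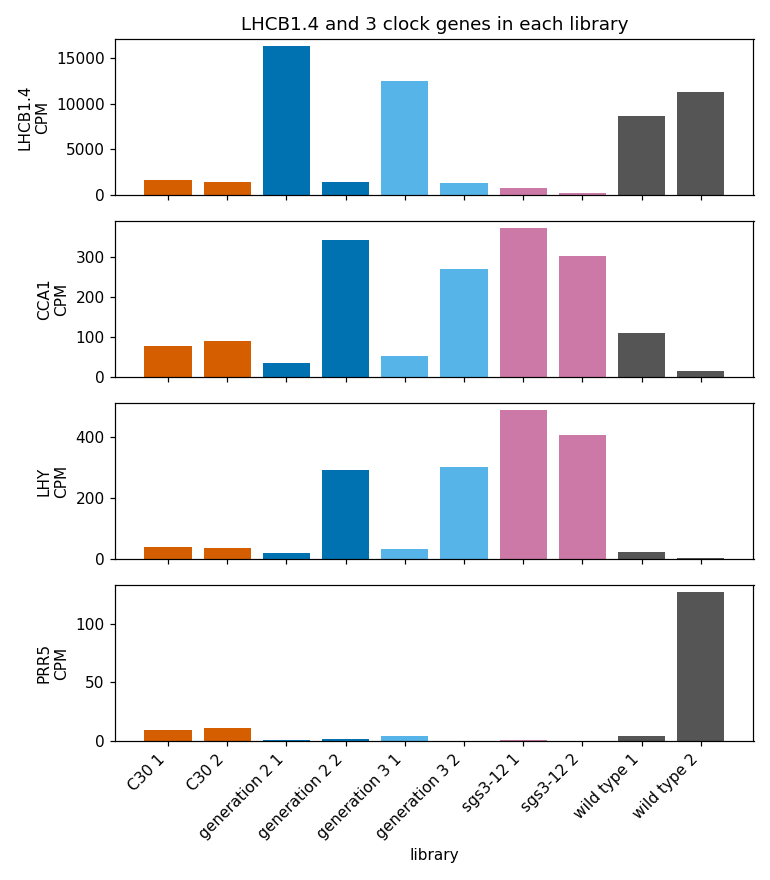
Bars give TMM-scaled CPM in each library for LHCB1.4 and the clock genes CCA1, LHY and PRR5, with C30 plants, generation 2, generation 3, sgs3-12 and wild type from left to right. In generation 2 LHCB1.4 is at 16299 and 1473 CPM in libraries 1 and 2 while LHY is at 20.8 and 292 CPM.

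Short sequence stretches upstream of the LHCB1 genes were searched for the letters known to be bound by CCA1. The 250 bases before the start of each gene model in the deposited table were searched on both strands for AAAAATCT or AACAATCT (the CCA1 site), AAAATATCT (the evening element), CACGTG (the G-box) and GATAAG (the I-box). No motif's letters contain those of another. The 30-base stretches around the CCA1 sites of LHCB1 genes are these, in RefSeq TAIR10.1, on the strand of the gene, with the site in capitals.
LHCB1.1, chr1:10476029-10476058, minus strand: aacgataaaacAAAAATCTtaaaatccaat
LHCB1.3, chr1:10477878-10477907, plus strand: caAACAATCTaaaccccaaaAAAAATCTat
LHCB1.4, chr2:14524578-14524607, plus strand: aattccaaaccAAAAATCTgatgccagctc
LHCB1.4, chr2:14524606-14524635, plus strand: tcgacaagacaAAAAATCTaagctcaaaaa
LHCB1.3 and LHCB1.4 thus held a pair of sites each, LHCB1.1 held 1, and the letters were not in the windows of LHCB1.2 and LHCB1.5. In the RefSeq annotation 120 of the 250 bases of the LHCB1.3 window, 149 of that of LHCB1.4 and 203 of that of LHCB1.2 lie in exons of longer transcripts of the same gene. Of the 38 windows 9 held the CCA1 site, against 8.19% of the 27997 windows searched, 15 the G-box, against 7.58%, 20 the I-box, against 12.8%, and 0 the evening element, against 2.26%. Whether any of these sites bears on the levels of the genes was not tested.

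Other genes of the light reactions were read from lists of related genes, in which edgeR called none against wild type. Of all tested genes, 27.0% were above both wild-type libraries in sgs3-12 and 24.6% below, which is the background for each list. Of 9 further antenna and photosystem genes, 2 were above both wild-type libraries and 2 below in sgs3-12, with a median of −0.35. The lowest p there was that of LHCB7, a rare antenna relative, at 34.6 and 43.6 CPM in sgs3-12 and 20.5 and 18.5 CPM in wild type (log2 fold change 1.00 ± 0.35 SE, edgeR adjusted p = 0.431). Of 11 genes of electron transport and ATP synthase, 2 were above and 2 below in sgs3-12, with a median of −0.20. The medians of these lists in C30 plants, generation 2 and generation 3 were −0.19, 0.64 and 0.57 for the further antenna and photosystem genes and −0.14, 0.67 and 0.57 for electron transport. FNR2, which passes electrons from ferredoxin to NADP, was at 249 and 179.7 CPM in sgs3-12 and 1116 and 1596 CPM in wild type (log2 fold change −2.66 ± 0.67 SE, edgeR adjusted p = 0.339). In generation 2 it was at 984 and 298 CPM, with library 2 the lower one, as for LHCB1.4. Of 6 antenna-like stress proteins, 2 were above and 1 below in sgs3-12. ELIP2, which binds chlorophyll under light stress, was at 0.265 and 111 CPM in generation 3, 17.2 and 32.7 CPM in sgs3-12 and 0.398 and 0.139 CPM in wild type (in sgs3-12, log2 fold change 6.50 ± 2.57 SE, edgeR adjusted p = 0.469).

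Of 7 genes that insert antenna proteins in the membrane or phosphorylate them, 0 were above (background 27.0%) and 3 below (24.6%) wild type in sgs3-12, with a median of −0.50. The phosphatase gene TAP38, which acts on LHCII, was at 74.7 and 92.4 CPM, against 158 and 351 CPM in wild type (log2 fold change −1.61 ± 0.60 SE, edgeR adjusted p = 0.453). Of 9 transcriptional regulators of antenna genes, 3 were above (CGA1, HY5 and GNC) and 2 below (PIF4 and GLK2) in sgs3-12, beside the same backgrounds, with a median of −0.02. CGA1, a GATA factor that promotes greening, was at 21.6 and 17.1 CPM in sgs3-12 and 2.96 and 3.85 CPM in wild type (log2 fold change 2.51 ± 0.42 SE, edgeR adjusted p = 0.266). HY5, a light-signalling activator, was at 19.8 and 20.8 CPM, against 4.38 and 4.26 CPM (log2 fold change 2.23 ± 0.40 SE, edgeR adjusted p = 0.266). PIF4, a phytochrome-interacting factor that acts in responses to warmth, was at 114 and 83.2 CPM, against 290.2 and 308 CPM (log2 fold change −1.60 ± 0.44 SE, edgeR adjusted p = 0.350). GLK2, an activator of photosynthesis genes, was at 162 and 129 CPM, against 299.5 and 244 CPM (log2 fold change −0.90 ± 0.63 SE, edgeR adjusted p = 0.709). GLK1, in the same list, was at 230 and 233 CPM, against 207 and 261 CPM, and overlapped with wild type. GLK2, GLK1 and GNC are named after their values were seen.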

How the data were processed

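PolyA RNA was sequenced in 10 libraries, grouped by the sample titles. Reads were processed with HISAT2 2.0.4 and StringTie 1.3.0 on TAIR10, per the submitters' processing notes. How reads were counted, and whether strand was used, was not stated. The deposited table holds counts per gene in 10 columns and FPKM values, per the file headers. The FPKM headers of the C30 plants are a repeated name, so 2 columns of per-sample values were not used. FPKM served only to derive gene lengths: TPM used the shorter of the length implied by the authors' counts and FPKM and the union of RefSeq exons, since the implied length exceeded the locus for 6 of the 38 genes.

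Counts were fitted with edgeR 4.0.16 (R 4.3.3) quasi-likelihood on all 10 libraries, with group as factor, TMM scaling and edgeR's filter on low counts; p was Benjamini-Hochberg adjusted over 19768 genes and called under 0.05. Totals were 17674090 to 23145159, and binomial intervals of a family share reach at most 0.483 points to either side, for counting error only. Alternatives were DESeq2 1.42.0, limma 3.58.1, other scalings, no filter, a length offset, a replicate block, and libraries left out. The fit was tested on simulated data. Sequences are from RefSeq TAIR10.1, which has the files' nuclear coordinates, and all 38 coding sequences lay inside the deposited loci. The design named the LHCB1 copies, both genes of paired families and the 4 genes with the lowest p in each comparison with wild type. Other genes of the set are given where a role is described. From other lists it named up to 3 genes each, and further clock genes and regulators were named after their values were seen. The members and lists were chosen with earlier results of these data known.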

Additional observations from a re-analysis of the deposited data

Results flagged for a closer look

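PSAH2 lay on opposite sides of wild type in different groups. Both generation 3 libraries (3029 and 2179.9 CPM) were above both wild-type libraries (2122 and 1486 CPM), while both C30 libraries (1065 and 1379 CPM) were below them. The log2 fold change of generation 3 minus that of C30 plants was 1.09. The direct comparison of generation 3 with C30 plants gives the same difference (log2 fold change 1.09 ± 0.55 SE, edgeR adjusted p = 0.763), which did not pass the test. Both sgs3-12 libraries (1348 and 1142 CPM) were also below wild type, and the log2 fold change of sgs3-12 minus that of generation 3 was −1.07, a difference that was not tested.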

How the results depend on the processing

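No gene of the set was called under any of the 19 alternatives in 6 of the 7 comparisons. In sgs3-12 against wild type, DESeq2 called 1 (LHCB1.4) and edgeR without library 1 of generation 2 and of generation 3 called 2 (LHCB1.4 and PSAE2, among 801 genes in all). The cause was not tested. The median of the 38 log2 fold changes kept its sign under all alternatives in C30 plants (−0.72 with the length offset) and in sgs3-12.

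The median did not keep its sign in the descendants against wild type, where it changed without library 1 of that generation and with the length offset. With each library left out in turn it ranged from −0.58 to 0.66 in generation 2 and from −0.19 to 0.65 in generation 3 against wild type. Against C30 plants the range was −0.12 to 1.12 in generation 2 and 0.25 to 1.03 in generation 3, and generation 3 against generation 2 ranged from −0.49 to 0.84. Without library 1 of both generations the median was −0.54 in generation 2 against wild type, and −0.08 and 0.29 in generation 2 and generation 3 against C30 plants.

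With the replicate number as a replicate block the medians were −0.45 in C30 plants, 0.19 and 0.26 in generations 2 and 3, and −0.96 in sgs3-12, all against wild type, and 0.64, 0.66 and 0.03 in the other comparisons, with 0 genes of the set called. Correlations between the deviations of same-numbered libraries ran from −0.27 to 0.45, with 6 of 10 pairs above 0.1 and the highest for generation 2 with generation 3. Not every pair was above 0.1 and the labels tie no numbers together, so the block was not used beside the results. Whether the libraries of generation 2 and generation 3 with the same number share a day or batch was not tested. Depth did not limit these genes, of which the lowest count was 5819.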
